A study of Mus musculus with 6 samples.

Results

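The set described here holds 50 mouse genes that license replication origins, build and drive the replication fork, supply its nucleotides or control entry into S phase. They were chosen by gene symbol from a list of such genes, with earlier results of these data known. They are 50 of the 54532 rows of the deposited gene table. All 50 passed the filter on low counts, which left 16844 genes for testing. Their levels were read by bulk RNA-seq of total RNA from NIT-1, a line derived from a mouse insulinoma that stands in for pancreatic beta cells. EV_Tm (3 libraries) had 16 h of hucMSC-EVs, vesicles shed by mesenchymal stem cells from human umbilical cord, and PBS_Tm (3 libraries) had 16 h of PBS. An 8 h exposure to Tm followed in each group. Tm is read here as tunicamycin, a blocker of N-glycosylation that causes stress in the endoplasmic reticulum. One label calls the PBS_Tm samples untreated, while their titles name the stress and the design text gives Tm to both groups. Both groups are therefore taken here as exposed to Tm, a reading that was not tested. No allele or transgene is named for either group, and the labels do not say that replicates came from separate cultures, so p-values measure the spread between these libraries, which may be technical.

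Replication begins when the origin recognition complex, with Cdc6 and Cdt1, loads rings of the MCM helicase onto DNA in G1, which licenses an origin. The kinases CDK and DDK then turn each ring into an active helicase by adding Cdc45 and GINS, and polymerases, the PCNA clamp and its RFC loader copy the strands behind it. Many of these genes are known targets of E2F transcription factors. In the general scheme, RB proteins release E2F when cyclin D and cyclin E kinases are active in late G1. Whether this control holds in the cells used here was not tested.

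The upstream sequences of 4 members are shown because they differ in the letters that E2F and the CCAAT-binding factor NF-Y are known to read, and because Mcm5 and Mcm6 rose in EV_Tm, Cdc6 fell and Pola1 did not pass the test. Picked on both grounds, these 4 sequences cannot show whether the letters go with the change. They come from the RefSeq promoter table on GRCm38.p6, cover bases upstream of the RefSeq start and outside GENCODE M21 exons, and are written 5′ to 3′ on the gene's strand. Capitals mark 4 E2F octamers (TTTCCCGC, TTTCGCGC, TTTGCCGC and TTTGGCGC) and CCAAT, each on either strand, and neighbouring or overlapping matches run together. Mcm5 lies at chr8:75109329-75109508 on the plus strand, Mcm6 at chr1:128359706-128359885 on the minus strand, Cdc6 at chr11:98907982-98908150 on the plus strand and Pola1 at chrX:93632156-93632335 on the minus strand. The Cdc6 stretch lies inside the span that the deposited table gives the gene, which starts farther upstream; the others lie before the gene's start there.
Mcm5: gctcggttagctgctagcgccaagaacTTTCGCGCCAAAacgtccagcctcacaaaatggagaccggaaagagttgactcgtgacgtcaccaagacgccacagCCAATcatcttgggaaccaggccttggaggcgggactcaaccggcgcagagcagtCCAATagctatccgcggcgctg
Mcm6: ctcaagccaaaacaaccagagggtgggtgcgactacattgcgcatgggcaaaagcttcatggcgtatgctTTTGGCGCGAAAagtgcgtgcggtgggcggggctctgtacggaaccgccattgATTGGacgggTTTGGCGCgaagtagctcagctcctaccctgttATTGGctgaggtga
Cdc6: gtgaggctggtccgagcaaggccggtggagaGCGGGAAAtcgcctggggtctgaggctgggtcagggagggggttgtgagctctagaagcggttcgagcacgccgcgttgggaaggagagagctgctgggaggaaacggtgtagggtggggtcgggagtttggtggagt
Pola1: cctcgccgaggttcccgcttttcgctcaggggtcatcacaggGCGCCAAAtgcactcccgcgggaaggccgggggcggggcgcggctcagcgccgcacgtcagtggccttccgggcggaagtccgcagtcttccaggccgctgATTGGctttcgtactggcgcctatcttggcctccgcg

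Of the 50 members, 39 had a window in that table, from 250 bases before to 50 bases after the start. An E2F octamer was in the window of 15 of these 39 members (38.5%), or in 31.9% of their 47 windows, against 2.26% of 32851 promoters and 3.80% of 13839 promoters of tested genes. CCAAT was found for 24 of the 39 members (61.5%) and in 57.4% of their windows, against 37.4% of all promoters and 37.6% of promoters of tested genes. The CHR element TTTGAA, which is known from genes of G2 and mitosis, was found for 6 of the 39 members (15.4%) and in 14.9% of their windows, against 17.9% of all promoters and 12.1% of promoters of tested genes. The octamers were found for 10 of 28 members with a window that rose, for 1 of 5 that fell (Cdc6), and for 4 of 6 that did not pass. These matches describe letters in a window and say nothing of binding.

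Library totals ran from 28654248 to 32550268 counts. A gene with 0 counts could still have up to 3, or 0.0922 to 0.105 CPM (counts scaled to the library total), for counting error only. Of 19 beta cell markers none passed the filter on low counts, and the highest count of any was 15. In all 6 libraries 11 had 0 counts, including Ins2, Pdx1 and Nkx6-1, so the labelled cell type was not matched by its defining markers. The highest count was 14 among 4 epithelial genes and 33 among 5 other islet genes. Endothelial genes summed to at most 31.2 CPM in EV_Tm and 33.5 CPM in PBS_Tm, and leukocyte genes to at most 8.10 CPM in EV_Tm and 6.05 CPM in PBS_Tm. Of the 8 exocrine and duct genes, 3 were tested and these 3 were higher in EV_Tm, against 22.6% of all tested genes. Another 4 (Cpa1, Prss2, Amy2b and Krt19) were at 0 in every library. The summed level of this list, most of it Spp1, was 3042 to 3145 CPM in EV_Tm and 2048 to 2124 CPM in PBS_Tm. The fibroblast list summed to 698 to 749 CPM in EV_Tm and 626 to 639 CPM in PBS_Tm, most of it Vim. Of its 9 genes 5 were tested, with 2 higher and 2 lower, against 22.6% and 24.7% of all tested genes. Hspa5, the ER chaperone gene that tunicamycin is known to raise, took 0.0961% to 0.0969% of counts in EV_Tm and 0.973% to 1.01% in PBS_Tm, and mitochondrial genes took 2.88% to 2.97% in EV_Tm and 2.43% to 2.57% in PBS_Tm. The part of these in the results below was not tested. In bulk samples, fewer cells in S phase and less RNA per cell cannot be told apart.

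In EV_Tm, 35 of the 50 members rose and 6 fell relative to PBS_Tm (edgeR quasi-likelihood test, Benjamini-Hochberg adjusted p under 0.05), against 22.6% of all tested genes higher and 24.7% lower. The members that fell were Orc2, Cdc6, Cdc45, Dbf4, Rfc4 and Ccnd2. The 9 that did not pass were Gins2, Gins3, Gins4, Pola1, Prim2, Pole2, Rfc3, Fen1 and Tyms. The members' log2 fold changes had a median of 0.31 (1.24-fold) and ran from -0.76 for Orc2 to 0.93 for Rrm2, while the median over all tested genes was 0.01. A rise of at least 1.5-fold was called for 10 members, against 7.25% of all tested genes, and a fall of that size for Orc2 alone, against 7.44%. Against the PBS_Tm mean, the median member stood 0.30, 0.33 and 0.32 log2 units higher in the 3 EV_Tm libraries. Groups did not overlap for 36 members that were higher and 6 that were lower, against 26.6% and 27.9% of all tested genes (54.5% in either direction). Members were well expressed, with a median level at percentile 73.7 of tested genes. Calls were more frequent once the lowest genes were dropped: with at least 1 CPM required in 3 libraries, 27.2% of tested genes were higher and 28.4% lower. That filter still kept 13951 genes, so these are not the shares among genes at the members' level.

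**Figure D1:**
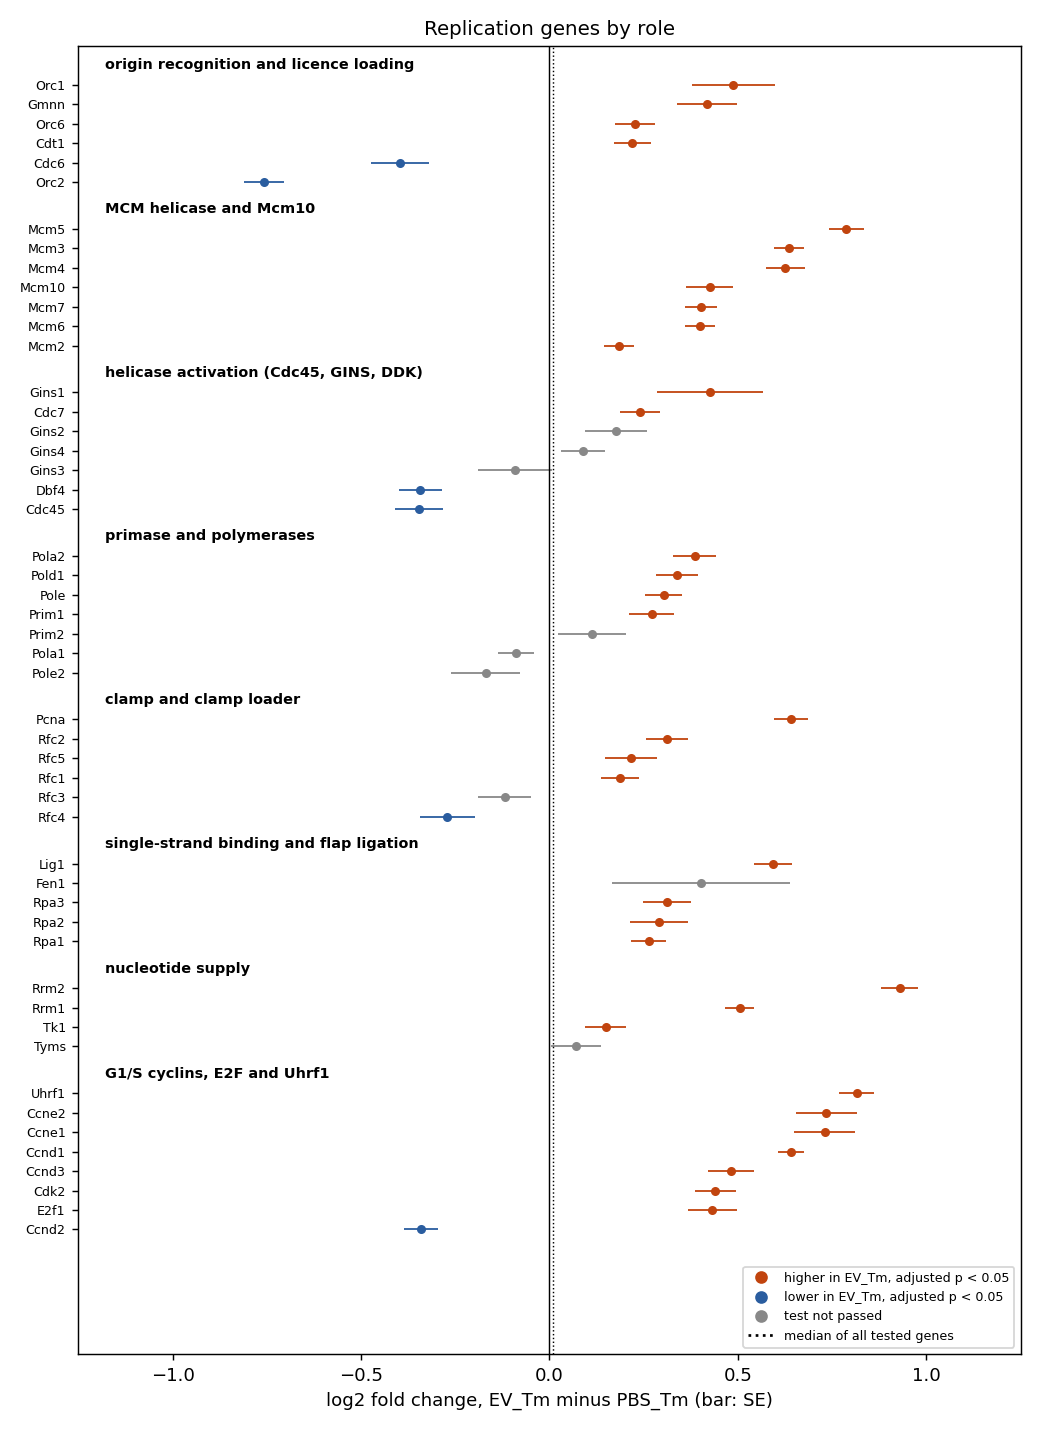
Log2 fold change (EV_Tm minus PBS_Tm, x axis) of the 50 members, one row each, grouped by role, with bars for the SE, colours for higher, lower and not passed, and a dotted line at the median of all tested genes. All 7 MCM genes and 7 of 8 G1/S genes lie to the right of 0, and Orc2 lies farthest to the left at -0.76.

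Levels summed over a role are given with no test. The MCM genes with Mcm10 summed to 1505 ± 6.44 CPM in EV_Tm and 1099.5 ± 26.4 CPM in PBS_Tm (SD, n = 3 each), the nucleotide genes to 517 ± 2.14 CPM in EV_Tm and 366 ± 5.70 CPM in PBS_Tm, and the G1/S genes to 1365 ± 13.4 CPM in EV_Tm and 947 ± 9.69 CPM in PBS_Tm. The 6 genes of origin recognition and licence loading, of which some rose and some fell, summed to 332 ± 6.57 CPM in EV_Tm and 331 ± 11.2 CPM in PBS_Tm. The 7 helicase activation genes summed to 269 ± 3.42 CPM in EV_Tm and 278 ± 5.91 CPM in PBS_Tm.

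Among origin recognition and licence loading genes, 4 rose (66.7%) and 2 fell (33.3%), against 22.6% and 24.7% of all tested genes. Orc2, a core subunit of the origin recognition complex (chromosome 1, 58462771 to 58505109, GRCm38 here and below), had 50.6, 49.4 and 52.7 CPM in EV_Tm, against 85.1, 88.7 and 84.4 CPM in PBS_Tm. All EV_Tm libraries lay far below all PBS_Tm libraries, and the level was 1.69-fold lower in EV_Tm (log2 fold change -0.76 ± 0.05 SE, edgeR adjusted p = 1.24e-11). About 29.8% of Orc2 exonic bases are also exons of Nif3l1 on the other strand, whose own log2 fold change was -0.01 (edgeR adjusted p = 0.942), and without a stated strand setting reads there cannot be told apart. Cdc6, the ATPase that joins the origin complex to load MCM (chromosome 11, 98907801 to 98923940), had 21.5, 23.2 and 21.3 CPM in EV_Tm, against 30.2, 28.3 and 28.4 CPM in PBS_Tm. The groups did not overlap, and Cdc6 was 1.32-fold lower in EV_Tm (log2 fold change -0.40 ± 0.08 SE, edgeR adjusted p = 0.000129). Gmnn encodes geminin, which binds Cdt1 and keeps origins from being licensed again; it had 32.1, 32.3 and 33.0 CPM in EV_Tm, against 22.7, 27.3 and 22.9 CPM in PBS_Tm. PBS_Tm replicate 2 was the highest of its group but still below every EV_Tm library, and Gmnn was 1.34-fold higher in EV_Tm (log2 fold change 0.42 ± 0.08 SE, edgeR adjusted p = 0.000103). Cdt1, the MCM loading partner that geminin blocks, averaged 150.4 ± 6.58 CPM in EV_Tm and 129 ± 8.31 CPM in PBS_Tm (SD, n = 3 each) and rose 1.16-fold (log2 fold change 0.22 ± 0.05 SE, edgeR adjusted p = 0.000688).

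The 6 subunit genes of the origin recognition complex did not move together. Orc1, the ATPase subunit that is known to vary through the cell cycle, averaged 12.4 ± 0.394 CPM in EV_Tm and 8.85 ± 0.737 CPM in PBS_Tm (SD, n = 3 each) and was 1.40-fold higher in EV_Tm (log2 fold change 0.49 ± 0.11 SE, edgeR adjusted p = 0.000657), with 10.8% of its exonic bases shared with Gm12743 on the other strand. Gm12743 itself fell (log2 fold change -0.75, edgeR adjusted p = 0.0134). Orc6, the smallest subunit, averaged 63.4 ± 0.782 CPM in EV_Tm and 54.2 ± 1.38 CPM in PBS_Tm and was 1.17-fold higher in EV_Tm (log2 fold change 0.23 ± 0.05 SE, edgeR adjusted p = 0.00114). The other core subunits are not members, but 2 of them fell, as Orc2 did. Orc4 had 101, 93.2 and 102 CPM in EV_Tm, against 158, 166 and 183 CPM in PBS_Tm and was 1.71-fold lower in EV_Tm (log2 fold change -0.77 ± 0.05 SE, edgeR adjusted p = 8.43e-12). Orc5 had 27.6, 26.7 and 25.5 CPM in EV_Tm, against 45.0, 43.0 and 41.5 CPM in PBS_Tm and was 1.62-fold lower in EV_Tm (log2 fold change -0.70 ± 0.07 SE, edgeR adjusted p = 5.97e-09). For both, all EV_Tm libraries lay below all PBS_Tm libraries. Orc3 had 71.1, 70.6 and 68.2 CPM in EV_Tm, against 72.9, 76.3 and 79.9 CPM in PBS_Tm, also without overlap, and did not pass (log2 fold change -0.13 ± 0.05 SE, edgeR adjusted p = 0.0512). Per length (TPM, counts divided by exonic length and scaled to one total), Orc6 made up 35.9 ± 0.45% of the summed level of the 6 subunits in EV_Tm and 24.7 ± 0.48% in PBS_Tm, Orc2 made up 18.5 ± 0.53% in EV_Tm and 25.1 ± 0.76% in PBS_Tm, and Orc1 made up 4.99 ± 0.08% in EV_Tm and 2.86 ± 0.24% in PBS_Tm (SD, n = 3 each).

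All 6 subunits of the MCM2-7 helicase rose, and so did Mcm10, which joins the helicase when it is activated. Of all tested genes, 22.6% rose. Mcm5 (chromosome 8, 75109569 to 75128439) had 132, 135 and 131 CPM in EV_Tm, against 78.3, 74.0 and 78.2 CPM in PBS_Tm. It was 1.73-fold higher in EV_Tm (log2 fold change 0.79 ± 0.05 SE, edgeR adjusted p = 4.70e-13), the largest change of the 7. Its upstream sequence above holds overlapping E2F octamers and 2 CCAAT boxes, and a link of these to the change was not tested. Mcm3 had 322, 321 and 328 CPM in EV_Tm, against 212, 209.8 and 202 CPM in PBS_Tm. It was 1.55-fold higher in EV_Tm (log2 fold change 0.64 ± 0.04 SE, edgeR adjusted p = 1.19e-12). Mcm4, which with Mcm6 and Mcm7 forms the catalytic core of the ring, had 135, 128 and 134 CPM in EV_Tm, against 84.7, 80.2 and 92.6 CPM in PBS_Tm. The groups were apart in all 3 genes, and Mcm4 was 1.54-fold higher in EV_Tm (log2 fold change 0.63 ± 0.05 SE, edgeR adjusted p = 2.64e-10).

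The other helicase genes changed less. Mcm6 averaged 323 ± 0.937 CPM in EV_Tm and 245 ± 10.1 CPM in PBS_Tm and Mcm7 259.6 ± 3.27 CPM in EV_Tm and 196 ± 9.07 CPM in PBS_Tm (SD, n = 3 each), with log2 fold changes of 0.40 ± 0.04 SE for each (edgeR adjusted p = 9.55e-09 for Mcm6 and 1.82e-08 for Mcm7). Of Mcm7's words of 50 bases, 23.3% also occur in transcripts of other genes, and 12.6% of its exonic bases are shared, so its level is less certain. Among the sharing genes on the other strand, Ap4m1 rose (log2 fold change 0.74, edgeR adjusted p = 1.33e-06) and Cops6 did not pass (0.10, edgeR adjusted p = 0.0749). Mcm10 averaged 45.4 ± 1.10 CPM in EV_Tm and 33.8 ± 0.0823 CPM in PBS_Tm and was 1.34-fold higher in EV_Tm (log2 fold change 0.43 ± 0.06 SE, edgeR adjusted p = 3.83e-06). Mcm2, a subunit that also carries histones, changed least (288 ± 2.35 CPM in EV_Tm and 254 ± 10.4 CPM in PBS_Tm; log2 fold change 0.18 ± 0.04 SE, edgeR adjusted p = 0.000509). The TPM levels of the 6 subunits lay between 116 and 300.5 in EV_Tm and between 68.4 and 197 in PBS_Tm, so that the highest was 2.59 times the lowest in EV_Tm and 2.88 times in PBS_Tm. Mcm2 made up 12.7 ± 0.11% of the summed TPM of the ring in EV_Tm and 15.7 ± 0.32% in PBS_Tm, while Mcm5 made up 10.2 ± 0.20% in EV_Tm and 8.30 ± 0.34% in PBS_Tm.

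**Figure D2:**
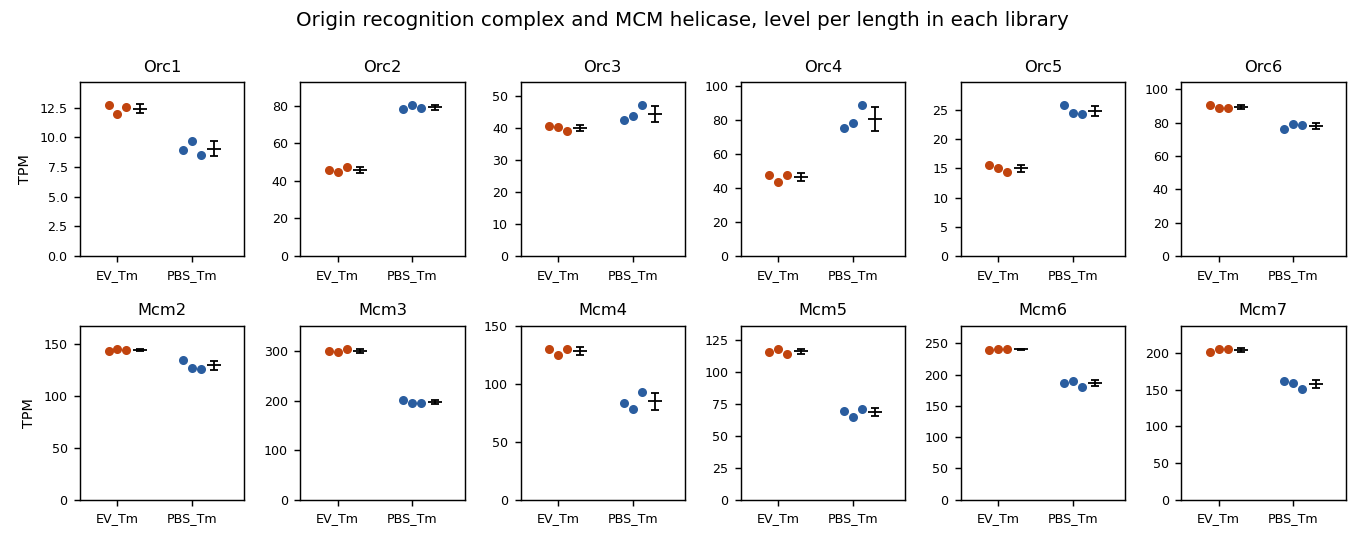
Level per length of the 6 origin recognition complex genes and the 6 MCM ring genes in each library (y axis, TPM from 0), 1 panel per gene, EV_Tm to the left of PBS_Tm, with points for libraries and a bar for the mean and SD (n = 3). Mcm2 to Mcm7, Orc1 and Orc6 lie higher in EV_Tm, and Orc2, Orc4 and Orc5 lie lower.

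The step that turns the loaded helicase on comprises 7 genes, of which 2 rose, 2 fell and 3 missed the threshold (median log2 fold change 0.09). These shares, 28.6% higher and 28.6% lower, are close to the 22.6% and 24.7% of all tested genes. DDK is made of the kinase Cdc7 and its activating subunit Dbf4, and the 2 genes moved in opposite directions. Cdc7 had 66.1, 65.0 and 65.4 CPM in EV_Tm, against 54.8, 56.7 and 55.0 CPM in PBS_Tm. Its groups were apart and it was 1.18-fold higher in EV_Tm (log2 fold change 0.24 ± 0.05 SE, edgeR adjusted p = 0.000561). Dbf4 had 67.2, 58.8 and 60.8 CPM in EV_Tm, against 75.2, 80.7 and 81.0 CPM in PBS_Tm. Its groups were apart as well, with EV_Tm lower, and it was 1.27-fold lower in EV_Tm (log2 fold change -0.34 ± 0.06 SE, edgeR adjusted p = 2.09e-05). Cdc45, which with GINS and MCM forms the active CMG helicase, had 38.5, 40.2 and 36.2 CPM in EV_Tm, against 50.5, 48.4 and 47.1 CPM in PBS_Tm. No EV_Tm library reached the lowest PBS_Tm library, and Cdc45 was 1.27-fold lower in EV_Tm (log2 fold change -0.35 ± 0.06 SE, edgeR adjusted p = 7.43e-05). Ufd1 on the other strand, whose own log2 fold change was -0.58, shares 5.96% of its exonic bases.

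Of the 4 GINS subunits, which hold Cdc45 to the MCM ring, only Gins1 passed the test. Gins1 had 8.70, 8.35 and 9.62 CPM in EV_Tm, against 5.91, 8.12 and 5.85 CPM in PBS_Tm. PBS_Tm replicate 2 stood near the EV_Tm libraries, and Gins1 was 1.34-fold higher in EV_Tm (log2 fold change 0.43 ± 0.14 SE, edgeR adjusted p = 0.0144). Its call was lost without EV_Tm replicate 3 (edgeR adjusted p = 0.0764), PBS_Tm replicate 1 (0.0690) or PBS_Tm replicate 3 (0.0658). Gins4 had 51.1, 50.6 and 52.4 CPM in EV_Tm, against 47.9, 50.1 and 46.8 CPM in PBS_Tm (log2 fold change 0.09 ± 0.06 SE, edgeR adjusted p = 0.215). It was the most abundant subunit per length, at 67.8 ± 0.47% of the summed GINS TPM in EV_Tm and 68.9 ± 0.82% in PBS_Tm. Gins3 had 14.3, 13.8 and 16.3 CPM in EV_Tm, against 14.9, 17.0 and 15.5 CPM in PBS_Tm, with overlapping groups (log2 fold change -0.09 ± 0.10 SE, edgeR adjusted p = 0.474). Gins2 had 26.7, 30.8 and 25.4 CPM in EV_Tm, against 25.9, 24.1 and 23.3 CPM in PBS_Tm, and 67.3% of its exonic bases are shared with Gse1 on the other strand. Gse1 itself did not pass (log2 fold change -0.14, edgeR adjusted p = 0.0734). Gins2 did not pass (log2 fold change 0.18 ± 0.08 SE, edgeR adjusted p = 0.0843), but did with library size alone (adjusted p = 0.0342) and without EV_Tm replicate 3 (0.0471).

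**Figure D3:**
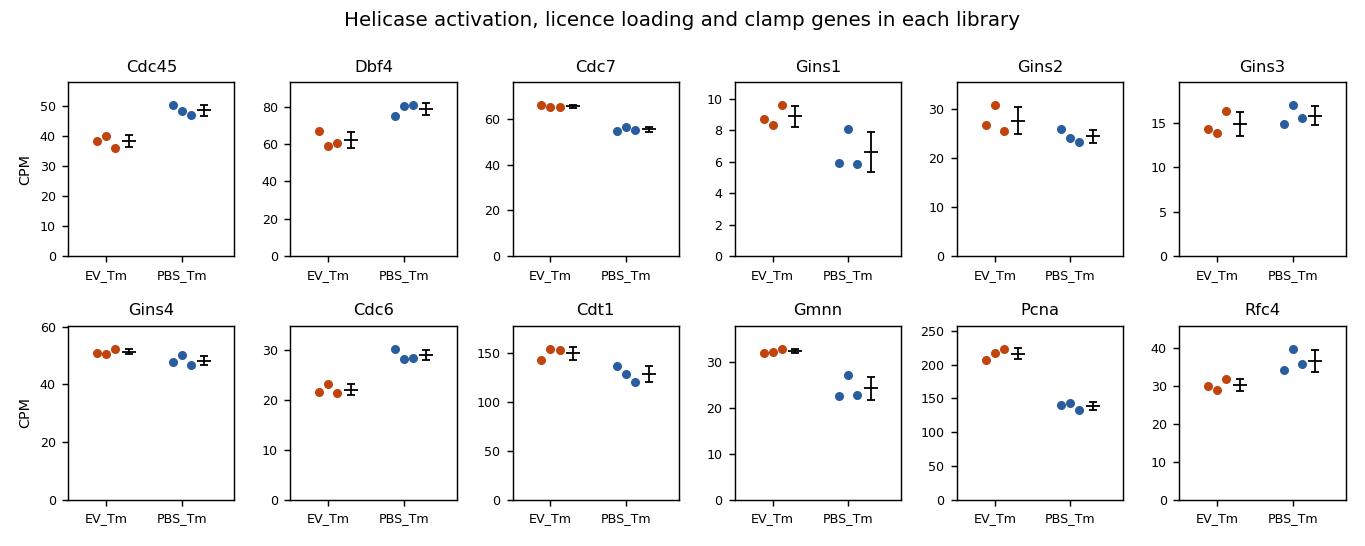
Level of the 7 helicase activation genes and of Cdc6, Cdt1, Gmnn, Pcna and Rfc4 in each library (y axis, CPM from 0), EV_Tm to the left of PBS_Tm, with points for libraries and a bar for the mean and SD (n = 3). Cdc45, Dbf4, Cdc6 and Rfc4 lie lower in EV_Tm, Cdc7 and Pcna lie higher, and the groups overlap for Gins2 and Gins3.

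Primase and polymerase genes gave 4 that rose (57.1%), 3 that missed the threshold and none that fell (median log2 fold change 0.27). Of all tested genes, 22.6% were higher and 24.7% lower. Pola2, the regulatory subunit of the polymerase that starts each strand, had 68.7, 76.1 and 76.8 CPM in EV_Tm, against 56.8, 57.9 and 54.9 CPM in PBS_Tm. It was 1.31-fold higher in EV_Tm (log2 fold change 0.39 ± 0.06 SE, edgeR adjusted p = 3.48e-06). Its catalytic partner Pola1 had 94.3, 89.9 and 88.5 CPM in EV_Tm, against 93.8, 97.7 and 98.5 CPM in PBS_Tm, with overlapping groups, and did not pass (log2 fold change -0.09 ± 0.05 SE, edgeR adjusted p = 0.134). The primase subunits, which make the RNA primer, also differed in outcome: Prim1 averaged 53.6 ± 2.66 CPM in EV_Tm and 44.4 ± 0.599 CPM in PBS_Tm and rose (log2 fold change 0.27 ± 0.06 SE, edgeR adjusted p = 0.000514), whereas Prim2 had 25.7, 20.9 and 21.7 CPM in EV_Tm, against 20.4, 20.1 and 22.6 CPM in PBS_Tm and did not pass (log2 fold change 0.11 ± 0.09 SE, edgeR adjusted p = 0.318). Pole, the catalytic subunit of the leading strand polymerase, had 98.4, 102 and 93.8 CPM in EV_Tm, against 81.1, 77.8 and 80.0 CPM in PBS_Tm. It was 1.23-fold higher in EV_Tm (log2 fold change 0.30 ± 0.05 SE, edgeR adjusted p = 1.56e-05). Its partner Pole2 had 17.1, 19.9 and 17.7 CPM in EV_Tm, against 18.4, 21.8 and 21.2 CPM in PBS_Tm and did not pass (log2 fold change -0.17 ± 0.09 SE, edgeR adjusted p = 0.139); without PBS_Tm replicate 1 it was called lower (log2 fold change -0.24, edgeR adjusted p = 0.0424). Pold1, the catalytic subunit of the lagging strand polymerase, had 120.5, 117 and 118 CPM in EV_Tm, against 103, 93.4 and 84.5 CPM in PBS_Tm. EV_Tm libraries were close together and PBS_Tm libraries more spread, with no overlap, and Pold1 was 1.27-fold higher in EV_Tm (log2 fold change 0.34 ± 0.06 SE, edgeR adjusted p = 1.77e-05). Of the 4 alpha-primase subunits Pola1 thus made up less of the summed TPM in EV_Tm (19.2 ± 0.76%) than in PBS_Tm (24.0 ± 0.56%). These shares rest on the deposited exonic length of Pola2, 2872 bases, while its GENCODE M21 exons cover 8294 bases. The size of the shares is therefore uncertain.

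Pcna encodes the sliding clamp that holds polymerases to DNA. It had 207, 217 and 223 CPM in EV_Tm, against 140.4, 143 and 132 CPM in PBS_Tm. All EV_Tm libraries were above all PBS_Tm libraries, and Pcna was 1.56-fold higher in EV_Tm (log2 fold change 0.64 ± 0.04 SE, edgeR adjusted p = 1.28e-11); 19.1% of its words of 50 bases also occur in the pseudogene Pcna-ps2, which had 281 counts over the 6 libraries. The RFC complex opens the clamp and sets it on DNA, and its 5 subunits did not move as one. Rfc2 had 63.2, 69.7 and 67.8 CPM in EV_Tm, against 54.2, 55.3 and 52.2 CPM in PBS_Tm and was 1.24-fold higher in EV_Tm (log2 fold change 0.31 ± 0.06 SE, edgeR adjusted p = 5.70e-05). Rfc4 had 30.0, 28.8 and 31.7 CPM in EV_Tm, against 34.0, 39.7 and 35.6 CPM in PBS_Tm, apart and lower in EV_Tm, and was 1.21-fold lower in EV_Tm (log2 fold change -0.27 ± 0.07 SE, edgeR adjusted p = 0.00378). On the other strand, Eif4a2 shares 12.7% of Rfc4's exonic bases and Lat2 shares 15.1% of Rfc2's. Eif4a2 itself rose (log2 fold change 0.30, edgeR adjusted p = 7.38e-07) and Lat2 did not pass (0.25, edgeR adjusted p = 0.592). Rfc3 had 32.9, 31.1 and 35.4 CPM in EV_Tm, against 34.5, 37.6 and 35.8 CPM in PBS_Tm, with overlapping groups, and did not pass (log2 fold change -0.12 ± 0.07 SE, edgeR adjusted p = 0.179). Rfc1, the large subunit, averaged 101 ± 3.47 CPM in EV_Tm and 88.6 ± 5.24 CPM in PBS_Tm and rose (log2 fold change 0.19 ± 0.05 SE, edgeR adjusted p = 0.00380), although not without PBS_Tm replicate 2 (adjusted p = 0.0571). Rfc5 averaged 56.7 ± 3.07 CPM in EV_Tm and 48.8 ± 5.28 CPM in PBS_Tm and rose with overlapping groups (log2 fold change 0.22 ± 0.07 SE, edgeR adjusted p = 0.0116); Wsb2 on the other strand, whose own log2 fold change was 1.07, shares 10.7% of its exonic bases. That call was lost without EV_Tm replicate 3 (adjusted p = 0.0803), PBS_Tm replicate 2 (0.0562) or PBS_Tm replicate 3 (0.0834).

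Of the genes that coat single strands and finish lagging strand fragments, 4 of 5 rose (80%), against 22.6% of all tested genes. Lig1, the ligase that seals these fragments, had 87.0, 86.9 and 89.4 CPM in EV_Tm, against 59.5, 57.6 and 57.6 CPM in PBS_Tm. The groups lay far apart, and Lig1 was 1.51-fold higher in EV_Tm (log2 fold change 0.59 ± 0.05 SE, edgeR adjusted p = 4.49e-10). Rpa1, the large subunit of the single-strand binding protein RPA, had 107, 107 and 112 CPM in EV_Tm, against 92.7, 88.8 and 90.3 CPM in PBS_Tm and was 1.20-fold higher in EV_Tm (log2 fold change 0.26 ± 0.05 SE, edgeR adjusted p = 4.14e-05). Rpa3, its small subunit, had 43.5, 42.3 and 43.6 CPM in EV_Tm, against 33.8, 35.7 and 34.7 CPM in PBS_Tm and was 1.24-fold higher in EV_Tm (log2 fold change 0.31 ± 0.06 SE, edgeR adjusted p = 0.000221). The middle subunit Rpa2 averaged 38.7 ± 4.24 CPM in EV_Tm and 31.6 ± 1.64 CPM in PBS_Tm and rose by a like amount (log2 fold change 0.29 ± 0.08 SE, edgeR adjusted p = 0.00299), but it missed the threshold when EV_Tm replicate 3 was left out (edgeR adjusted p = 0.0515). The shares of the 3 subunits in the summed RPA TPM thus differed little, with Rpa3 at 54.0 ± 1.35% in EV_Tm and 53.3 ± 0.95% in PBS_Tm. Fen1, the flap nuclease, had 2.38, 2.62 and 2.30 CPM in EV_Tm, against 1.92, 1.72 and 1.87 CPM in PBS_Tm. Its libraries were apart but the level was low, and it did not pass (log2 fold change 0.40 ± 0.24 SE, edgeR adjusted p = 0.170). On the other strand, genes share 84.2% of its exonic bases (78.8% with Gm10143, the rest with Tmem258). Gm10143 itself rose (log2 fold change 1.33, edgeR adjusted p = 0.00521) and Tmem258 did not pass (0.08, edgeR adjusted p = 0.410).

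Nucleotide supply held the member with the largest change. Rrm2, the small subunit of ribonucleotide reductase, which makes deoxynucleotides and is known to peak in S phase (chromosome 12, 24708241 to 24714146), had 122, 122 and 121 CPM in EV_Tm, against 60.8, 65.4 and 65.6 CPM in PBS_Tm. It was 1.90-fold higher in EV_Tm (log2 fold change 0.93 ± 0.05 SE, edgeR adjusted p = 5.21e-14). Its large partner Rrm1 had 292, 283 and 285 CPM in EV_Tm, against 199.9, 199.5 and 207 CPM in PBS_Tm, apart between groups, and was 1.42-fold higher in EV_Tm (log2 fold change 0.50 ± 0.04 SE, edgeR adjusted p = 1.03e-10). Rrm2b, the alternative small subunit that p53 is known to raise, is not a member and moved the other way. It had 22.1, 22.8 and 19.3 CPM in EV_Tm, against 41.4, 44.8 and 47.0 CPM in PBS_Tm and was 2.08-fold lower in EV_Tm (log2 fold change -1.05 ± 0.08 SE, edgeR adjusted p = 3.04e-11). Per length, Rrm2 was thus 60.8 ± 0.28% of the 3 subunit genes' TPM in EV_Tm and 49.8 ± 0.74% in PBS_Tm, and Rrm2b was 3.24 ± 0.26% in EV_Tm and 10.5 ± 0.32% in PBS_Tm. Tk1, the S phase thymidine kinase, had 64.6, 64.9 and 65.4 CPM in EV_Tm, against 60.5, 56.5 and 58.7 CPM in PBS_Tm. The groups were apart and the difference small (log2 fold change 0.15 ± 0.05 SE, edgeR adjusted p = 0.0242). The call was lost with no filter (adjusted p = 0.0672) and without EV_Tm replicate 1 (0.0622), 2 (0.0757) or 3 (0.0759) or PBS_Tm replicate 2 (0.144). Tyms, the thymidylate synthase gene, had 39.8, 44.5 and 45.9 CPM in EV_Tm, against 41.9, 40.7 and 41.4 CPM in PBS_Tm, with overlapping groups, and did not pass (log2 fold change 0.07 ± 0.07 SE, edgeR adjusted p = 0.404).

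The genes of entry into S phase had the highest median of the 8 roles, 0.56, with 7 rising (87.5%) and 1 falling (12.5%). Of all tested genes, 22.6% were higher and 24.7% lower. Ccnd1, cyclin D1, the D cyclin that drives Cdk4 and Cdk6 (chromosome 7, 144929931 to 144939925), had 840.1, 836 and 821 CPM in EV_Tm, against 542, 529 and 531 CPM in PBS_Tm. Libraries of a group differed little, and Ccnd1 was 1.56-fold higher in EV_Tm (log2 fold change 0.64 ± 0.03 SE, edgeR adjusted p = 8.71e-14), although 23.4% of its exonic bases are shared with LTO1 on the other strand. LTO1 itself rose (log2 fold change 0.30, edgeR adjusted p = 0.00853). Ccnd2, cyclin D2, is known as an important D cyclin of mouse beta cells, whose listed markers did not pass the filter in these libraries. It had 115, 106 and 112 CPM in EV_Tm, against 143, 139 and 141 CPM in PBS_Tm. The groups did not overlap, and Ccnd2 was 1.27-fold lower in EV_Tm (log2 fold change -0.34 ± 0.05 SE, edgeR adjusted p = 8.54e-07). Ccnd3 rose (61.2 ± 1.39 CPM in EV_Tm and 43.8 ± 2.99 CPM in PBS_Tm; log2 fold change 0.48 ± 0.06 SE, edgeR adjusted p = 3.53e-07). In summed D cyclin TPM, Ccnd1 made up 90.4 ± 0.22% in EV_Tm and 85.0 ± 0.28% in PBS_Tm, and Ccnd2 6.04 ± 0.24% in EV_Tm and 11.2 ± 0.03% in PBS_Tm.

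Both E cyclins, which activate Cdk2 at the G1/S border, rose. Ccne2 had 30.7, 30.8 and 32.2 CPM in EV_Tm, against 17.1, 19.5 and 19.7 CPM in PBS_Tm. It was 1.66-fold higher in EV_Tm (log2 fold change 0.74 ± 0.08 SE, edgeR adjusted p = 3.46e-08), with 17.4% of its exonic bases shared with Ints8 on the other strand. Ints8 itself fell (log2 fold change -0.26, edgeR adjusted p = 0.000519). Ccne1 rose 1.66-fold (37.2 ± 2.25 CPM in EV_Tm and 22.5 ± 2.28 CPM in PBS_Tm; log2 fold change 0.73 ± 0.08 SE, edgeR adjusted p = 4.38e-08). Ccne1 made up 61.0 ± 1.01% of the summed E cyclin TPM in EV_Tm and 61.1 ± 1.37% in PBS_Tm. Their kinase Cdk2 rose as well (69.5 ± 0.355 CPM in EV_Tm and 51.2 ± 1.91 CPM in PBS_Tm; log2 fold change 0.44 ± 0.05 SE, edgeR adjusted p = 2.69e-07). E2f1, an activating E2F, averaged 59.6 ± 1.05 CPM in EV_Tm and 44.2 ± 4.01 CPM in PBS_Tm and was 1.35-fold higher in EV_Tm (log2 fold change 0.43 ± 0.06 SE, edgeR adjusted p = 4.29e-06). Uhrf1, which brings the maintenance methyltransferase Dnmt1 to newly copied DNA, had 168, 164 and 155 CPM in EV_Tm, against 95.3, 88.5 and 93.0 CPM in PBS_Tm. All EV_Tm libraries were far above the PBS_Tm libraries, and Uhrf1 was 1.76-fold higher in EV_Tm (log2 fold change 0.81 ± 0.05 SE, edgeR adjusted p = 3.71e-13); 15.4% of its words of 50 bases occur in other genes, 14.7% in Gm5648.

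**Figure D4:**
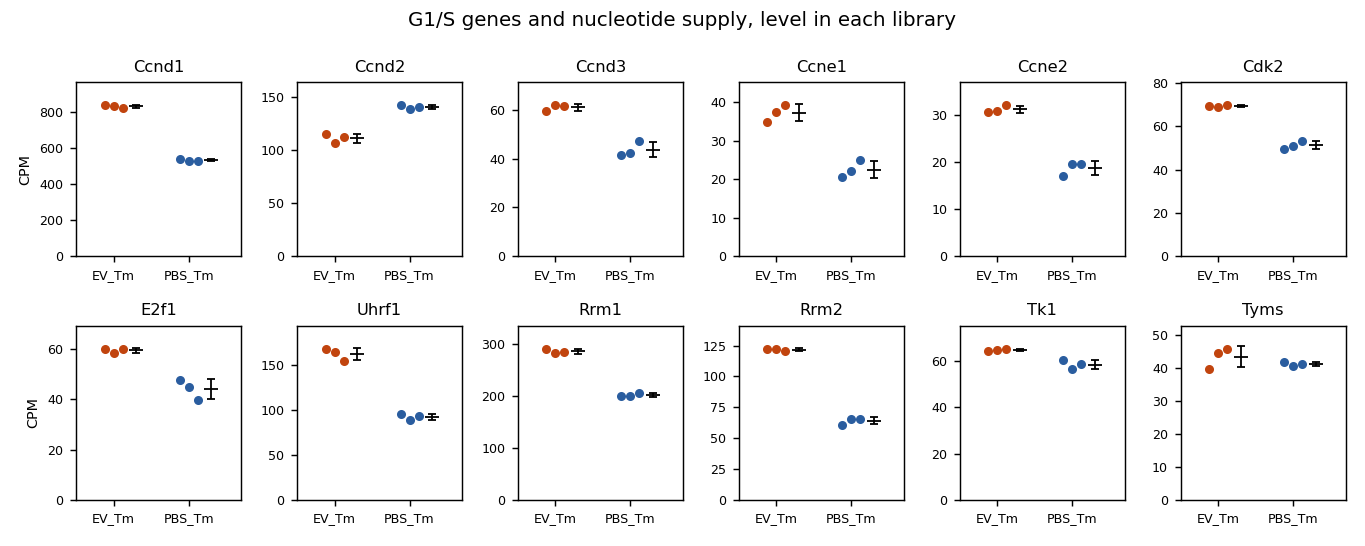
Level of G1/S and nucleotide supply genes in each library (y axis, CPM from 0), EV_Tm to the left of PBS_Tm, with points for libraries and a bar for the mean and SD (n = 3). Rrm2 lies between 121 and 122 in EV_Tm and between 60.8 and 65.6 in PBS_Tm, and Ccnd2 lies lower in EV_Tm.

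Outside the set, 95 other genes of replication and its control were examined in 6 lists, of which 92 were tested. There were 40 that rose (43.5%), 20 that fell (21.7%) and 32 that missed the threshold (median log2 fold change 0.10), against 22.6% higher and 24.7% lower among all tested genes, with which the counts of each list below are to be read. Cdkn2a and Cdkn2b, inhibitors of Cdk4 and Cdk6, had 0 counts in all libraries, and Cdkn1c had 2 to 12, too few to test. Of 12 other licensing and firing genes, 3 rose and 5 fell (median -0.13). Recql4, a helicase needed for origin firing, fell (log2 fold change -0.77, edgeR adjusted p = 2.39e-09; values in parentheses from here on are log2 fold changes), like Orc4 and Orc5 above. Wdhd1, which ties the polymerase alpha complex to the helicase, rose (0.73, edgeR adjusted p = 4.80e-09), as did Topbp1 (0.35, edgeR adjusted p = 6.07e-07) and its partner Ticrr (0.58, edgeR adjusted p = 2.00e-06), which act in helicase activation.

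Of 20 other fork genes 9 rose and 3 fell (median 0.12). The RNase H2 subunit gene Rnaseh2c (0.82, edgeR adjusted p = 5.82e-09), the checkpoint mediator Clspn (0.70, edgeR adjusted p = 7.86e-09), the PCNA unloader Atad5 (0.56, edgeR adjusted p = 1.84e-06) and the fork protection gene Timeless (0.41, edgeR adjusted p = 4.69e-06) rose. Pole4 (-0.33, edgeR adjusted p = 6.58e-06) and the mitochondrial single-strand binding gene Ssbp1 (-0.22, edgeR adjusted p = 0.00684) fell. Of 15 other nucleotide genes 7 rose and 4 fell (median 0.20), with Umps (0.40, edgeR adjusted p = 2.67e-07) and Dut (0.44, edgeR adjusted p = 8.82e-07) higher. Cad, which starts pyrimidine synthesis (-0.45, edgeR adjusted p = 3.96e-09), the CTP synthase Ctps (-0.23, edgeR adjusted p = 4.92e-05) and the dCMP deaminase Dctd (-0.21, edgeR adjusted p = 0.000954) were lower, beside Rrm2b.

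Of 9 chromatin genes that work behind the fork 7 rose and 1 fell (median 0.24). The histone chaperone Nasp (0.53, edgeR adjusted p = 9.61e-10), Dnmt1 (0.30, edgeR adjusted p = 3.83e-07) and the histone acetyltransferase Hat1 (0.42, edgeR adjusted p = 5.47e-07) rose, and the FACT subunit Ssrp1 fell (-0.27, edgeR adjusted p = 1.01e-06). Of 27 tested RB-E2F and G1/S regulators 13 rose and 5 fell (median 0.06). They did not all point one way in function: the Cdk4 and Cdk6 inhibitor Cdkn2c, with 34.6, 36.7 and 34.9 CPM in EV_Tm, against 17.8, 18.0 and 16.0 CPM in PBS_Tm, was 2.05-fold higher in EV_Tm (log2 fold change 1.04 ± 0.08 SE, edgeR adjusted p = 4.90e-11). The Cdk inhibitor Cdkn1b (0.41, edgeR adjusted p = 3.30e-08) rose, and so did Skp2, the ubiquitin ligase subunit that removes its protein (0.88, edgeR adjusted p = 1.25e-09), and Cdk4 (0.33, edgeR adjusted p = 2.01e-08). The p53 target and Cdk inhibitor Cdkn1a (-0.23, edgeR adjusted p = 2.85e-05) and the pocket protein gene Rb1 (-0.26, edgeR adjusted p = 0.000363) fell. Of 9 checkpoint genes 1 rose, Wee1 (0.57, edgeR adjusted p = 6.42e-08), the kinase that restrains Cdk1 and Cdk2. The clamp gene Rad9a (-0.36, edgeR adjusted p = 0.000133) and the clamp loader gene Rad17 (-0.24, edgeR adjusted p = 0.0102) fell, and 6 did not pass (median of the list -0.05).

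**Figure D5:**
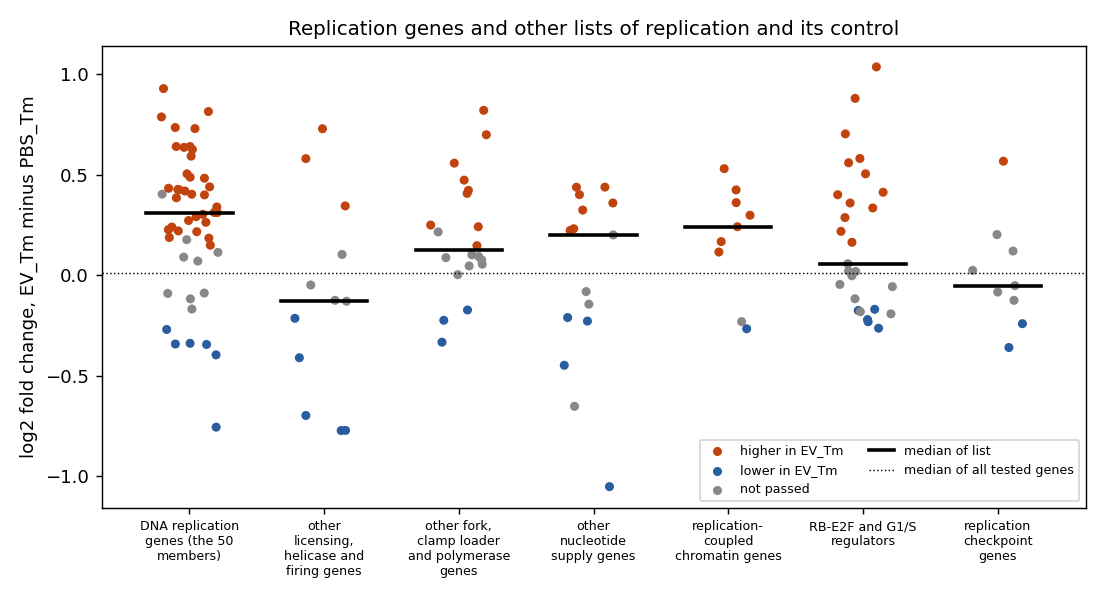
Log2 fold change (EV_Tm minus PBS_Tm, y axis) of each tested gene in the set of 50 members and in the 6 other lists, with the median of each list and a dotted line at 0.01, the median of all tested genes. The members' median is 0.31 and the lists' medians lie between -0.13 and 0.24.

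Between replicates, the members had a median coefficient of variation of 3.32% in EV_Tm and 4.09% in PBS_Tm. The highest of any member was 11.2% in EV_Tm and 19.5% in PBS_Tm. Such a median over all tested genes is not given here. Their exons were 4045 bases long at the median, against 3513.5 bases for all tested genes. Across genes, which are not independent replicates, log2 fold change and log2 exonic length had a Pearson correlation of -0.11 over the 50 members and -0.18 over all tested genes.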

How the data were processed

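Total RNA of 6 NIT-1 samples was sequenced. Per the labels' protocols, adaptors were trimmed and alignment used HISAT2 2.2.1; the submitters' processing notes name featureCounts 2.0.6. The table deposited by the authors holds raw counts for each gene, not normalized, and gene starts, ends and lengths as other values, in bases. Whether counting used strand, and how multi-mapping reads were treated, is not given in the sources used here. The notes name mm39, but 98.3% of 54495 shared gene IDs, 49 of the 50 members among them (Pola2 differs), have the GRCm38 start and end of GENCODE M21, so coordinates are read as GRCm38.

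The labels gave the groups. Counts were fitted with edgeR 4.0.16 (R 4.3.3), EV_Tm over PBS_Tm, using TMM factors, filterByExpr and two-sided quasi-likelihood F tests, with p-values adjusted by Benjamini-Hochberg over 16844 genes. CPM used TMM-scaled library sizes, except in the 0 count limits and marker sums, and TPM used the deposited exonic length. Libraries of one group differed by a mean chi-square per gene of 3.59 to 7.22, above sampling noise, and all 6 were kept. Overlap with other genes was taken from GENCODE M21 exons and words of 50 bases. Members with 10.7% or more of exonic bases shared are named as uncertain where described, as are Pcna and Uhrf1; Orc6, Cdc45, Pole2, Lig1, Ccnd2 and Ccnd3 share 4.11% to 8.50%, Pole, Rpa1, Tk1 and Cdk2 share less, and smaller shares of words are not named. The tests were tried on simulated counts. Alternatives comprised scaling by DESeq2's size factors or by library size alone, testing without a filter or with 1 CPM required in 3 libraries, tests by limma-voom (limma 3.58.1) and DESeq2 1.42.0, a replicate block, omission of each library, an adjusted p under 0.01 and a 1.5-fold minimum.

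Members and lists were chosen with earlier results of these data known. Values per library are given for up to 3 members of each role by smallest p, for members that fell, and for members that did not pass where a complex is described. From each other list, up to 4 genes by smallest p and up to 2 against the list's main direction are named; Orc3 and the genes too low to test were chosen after their values were seen.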

Additional observations from a re-analysis of the deposited data

How the results depend on the processing

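Of the 50 members, 43 had the same call under every other scaling, filter and test, the replicate block and each omission of a library, and 0 changed sign under these; the other 7 (Gins1, Gins2, Pole2, Rfc1, Rfc5, Rpa2 and Tk1) are described beside their values. Other scalings, filters and tests gave 34 to 36 members higher and 6 lower. Leaving out 1 library at a time gave 32 to 34 members higher and 6 to 7 lower. Of all tested genes, 18.8% to 20.8% were then higher and 21.9% to 23.5% lower, with 7080 to 7708 called in all. Of the other listed genes, 56 to 62 were called. The median member log2 fold change ran from 0.28 (without PBS_Tm replicate 3) to 0.32 (without PBS_Tm replicate 2). With library size alone the members' median was 0.35, against 0.31, and that of all tested genes moved to 0.05, against 0.01. An adjusted p under 0.01 left 32 members higher and 6 lower. The share of all tested genes under 0.01 is not given here, so these counts have no background beside them. A minimum of 1.5-fold, which is stricter by construction, left 10 members higher, 1 lower, 10 of the other listed genes and 2476 of all tested genes. With the replicate number as a block, 35 members were higher and 6 lower, against 21.8% and 24.1% of all tested genes, and 7737 genes were called in all. The numbers do not pair the libraries (correlations of same-numbered deviations -0.04, 0.02 and -0.01), so the block is not read further.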
